A study of Drosophila melanogaster with 12 samples.

Results

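Genes of secreted digestive enzymes were followed in adult heads of Drosophila melanogaster over a light/dark day and the day of darkness after it. They were chosen by gene symbol, as the Jonah proteases (Jon), the trypsins named with Greek letters, the lysozymes (Lys), the Mal-A and Mal-B glucosidases and amylase (Amy). Of 10826 genes named on the array, 42 carried such a symbol, and each was measured by 1 probe set, a group of short probes for 1 transcript. They comprised 14 Jon proteases, 9 trypsins, 7 lysozymes, 10 Mal glucosidases, 1 amylase (Amy-d) and LysRS. LysRS encodes lysyl-tRNA synthetase, an enzyme of protein synthesis in all cells and no lysozyme. It was counted because its symbol fits the pattern. The Jonah genes Jon99Cii and Jon99Ciii had no probe set of their own. The 3 probe sets that carry both symbols are therefore given beside the 42 genes and are not counted among them.

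Jonah proteases and trypsins are serine endopeptidases that the midgut secretes to cut dietary protein, and trypsins cut after lysine and arginine. In flies, lysozymes of the gut digest the walls of ingested bacteria, while LysP is known from the salivary glands. Amylase cuts starch into maltose, and the Mal enzymes release glucose from maltose and similar sugars. The midgut lies in the thorax and abdomen, whereas the gut within the head comprises the pharynx and the front of the oesophagus.

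All flies were y w, a common laboratory strain mutant for the pigmentation genes yellow and white, and the labels give neither sex nor age beyond adult. Flies had 3 days of alternating 12 h light and darkness, then were collected and frozen every 4 h, at hours 2, 6, 10, 14, 18 and 22 of a further light/dark day (LD; ZT2 to ZT22) and of the next day in constant darkness (DD; CT2 to CT22). Heads were broken off the frozen flies and separated on sieves, and RNA from a pool of about 100 to 200 heads was hybridised to 1 array per time point, 12 in all. The labels do not say whether the pools came from separate cultures, so a p-value reflects only array-to-array spread, which may be technical, and the 12 arrays limit the precision.

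Levels are log2 values made by the authors with RMA, which corrects background, equalizes the arrays and summarises the probes of a set, so that 1 unit is a 2-fold difference. Array medians lay between 5.37 and 5.40. Of 15 genes of the eye and brain listed as a check of the tissue, 9 were measured. The photoreceptor arrestin gene Arr2 was at 12.34 on CT2 and between 12.03 and 12.52 on the other arrays. Not all of the 9 were as steady. Arr1 was at 11.44 on CT2 against 10.31 to 11.92, and the eye gene inaD at 8.70 against 7.28 to 8.65. The neuronal gene elav had its lowest level on CT2, 4.11 against 4.16 to 5.69. The 5′ minus 3′ signal of 3 control transcripts, which drops when RNA is broken or copied in part, was −1.52 on CT2 and lowest on CT18 (−2.51) and CT22 (−2.45). The other arrays lay between −2.02 (ZT2) and −1.52 (ZT14).

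A few proteases stood far higher on CT2, the first array in constant darkness, than on any other array. Each array was set against the median of the other 11. By this measure 5 of the 42 genes were over 1 log2 higher on CT2 (11.9%), where 0.193% of the 13966 probe sets were. These were the Jonah genes Jon25Biii, Jon99Fii, Jon65Aiii and Jon65Aiv and the trypsin gene alphaTry. The smallest of the 5 differences was 1.11, and the next gene below them had 0.51. No gene was over 1 log2 lower on CT2, where 0.0573% of all probe sets were. CT2 was singled out with earlier results of these data known and is 1 array with no replicate, so its values are a description with no test. In a pool of heads, more cells of a type and more RNA per cell cannot be told apart.

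Jon25Biii, a Jonah protease gene, had the largest difference of the 42. Its log2 level was 7.29 on CT2. In LD it was 4.49, 4.48, 4.98, 4.66, 4.70 and 4.71 from ZT2 to ZT22, and in DD it was 4.82, 4.62, 4.63, 4.70 and 4.70 from CT6 to CT22. CT2 was thus 2.60 log2, or 6.05-fold, above the median of the other arrays, which spanned only 0.49 log2 among themselves. The neighbouring arrays in time, ZT22 and CT6, lay within that span.

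The probe sets shared by Jon99Cii and Jon99Ciii were also highest on CT2, 2 of them by more than Jon25Biii and 1 by slightly less. The set with the largest difference was at 8.46 on CT2. It was at 2.70, 2.99, 3.37, 2.74, 2.60 and 2.64 from ZT2 to ZT22, and at 2.41, 2.56, 2.41, 4.11 and 2.62 from CT6 to CT22. The difference of the log2 values was 5.82, and CT18 was the only other array above 3.37. The other values lie near the lowest of the whole table (1.96), and whether they are above background is not known, so no fold is given for this set. The other 2 shared sets were at 9.31 and 9.60 on CT2, between 6.34 and 6.87 and between 6.78 and 7.30 on the other arrays, with differences of 2.73 (6.63-fold) and 2.55 (5.84-fold). The 3 sets measure the same pair of genes and are not separate results.

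Jon99Fii was at 8.06 on CT2 and between 6.62 (ZT6) and 6.88 (CT18) on the other arrays, a difference of 1.31 log2 or 2.47-fold. Its values were 6.81, 6.62, 6.73, 6.69, 6.80 and 6.75 from ZT2 to ZT22 and 6.74, 6.68, 6.77, 6.88 and 6.84 from CT6 to CT22. LD and the rest of DD overlapped.

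The adjacent genes Jon65Aiii and Jon65Aiv, also Jonah proteases, both had a difference of 1.11 log2 or 2.16-fold. Jon65Aiii was at 8.03 on CT2, at 6.83, 6.87, 6.96, 6.97, 6.92 and 6.95 from ZT2 to ZT22, and at 6.90, 6.74, 6.81, 6.99 and 6.95 from CT6 to CT22. Jon65Aiv was at 8.49 on CT2, at 7.43, 7.31, 7.39, 7.34, 7.34 and 7.27 from ZT2 to ZT22, and at 7.38, 7.37, 7.45, 7.43 and 7.42 from CT6 to CT22. Without CT2, LD and DD overlapped in both genes. alphaTry, a trypsin gene, was at 6.28 on CT2 and at 5.16, 5.13, 5.30, 5.16, 5.13 and 5.34 from ZT2 to ZT22. From CT6 to CT22 it was at 5.07, 5.26, 5.0, 5.16 and 5.20, which gave a difference of 1.12 log2 or 2.17-fold.

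**Figure D1:**
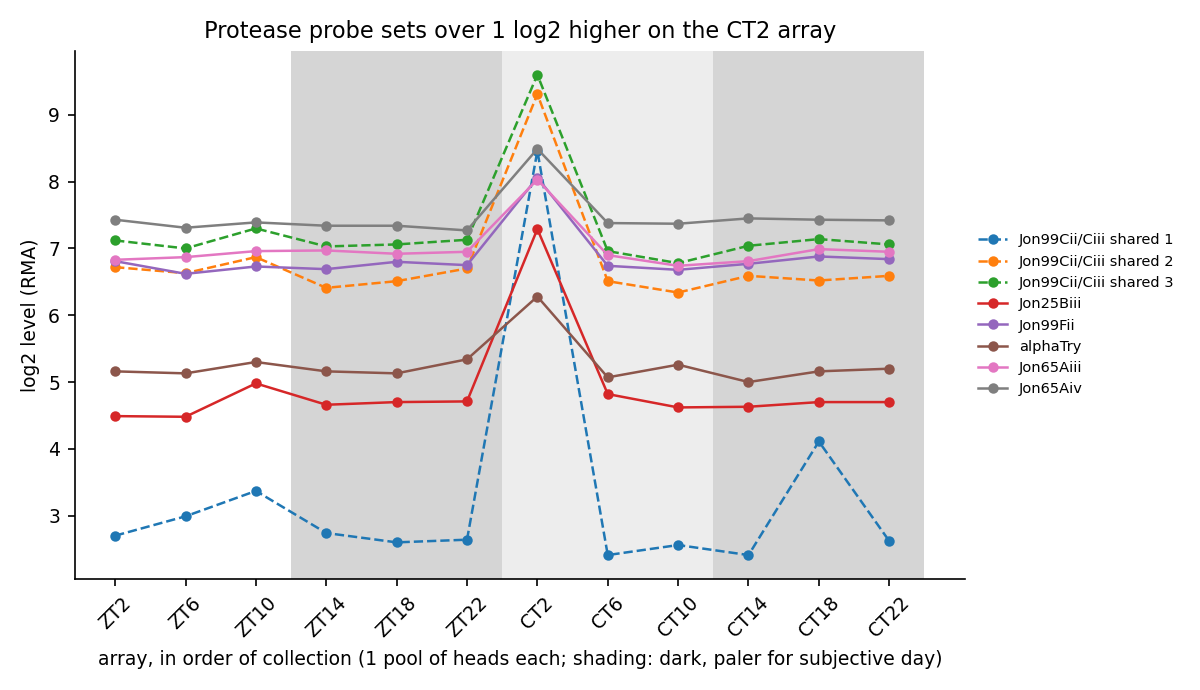
Log2 level (RMA) of the 5 genes over 1 log2 higher on CT2 (solid lines) and of the 3 probe sets shared by Jon99Cii and Jon99Ciii (dashed lines) on each of the 12 arrays in order of collection, 1 pool of heads per point, with dark hours shaded. All 8 lines have their highest point at CT2, where Jon25Biii reached 7.29 against 4.48 to 4.98 elsewhere.

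Smaller differences in the same direction extended to many of the other genes. CT2 was the highest of the 12 arrays for 19 of the 42 genes (45.2%), where it was for 4.33% of all probe sets. It lay above the median of the other arrays for 35 of the 42 and below it for 7, where it lay above for 49.6% of all probe sets. The median difference over the 42 genes was 0.18 log2, that over all probe sets −0.001, and on the other 11 arrays the same median over the 42 genes lay between −0.09 and 0.04. Besides the 5 proteases, 10 genes had differences between 0.30 and 0.60. On the other 11 arrays 1 gene in all was over 1 log2 above the median of the rest, Amy-d on ZT2, where 0.322% of all probe sets were.

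**Figure D2:**
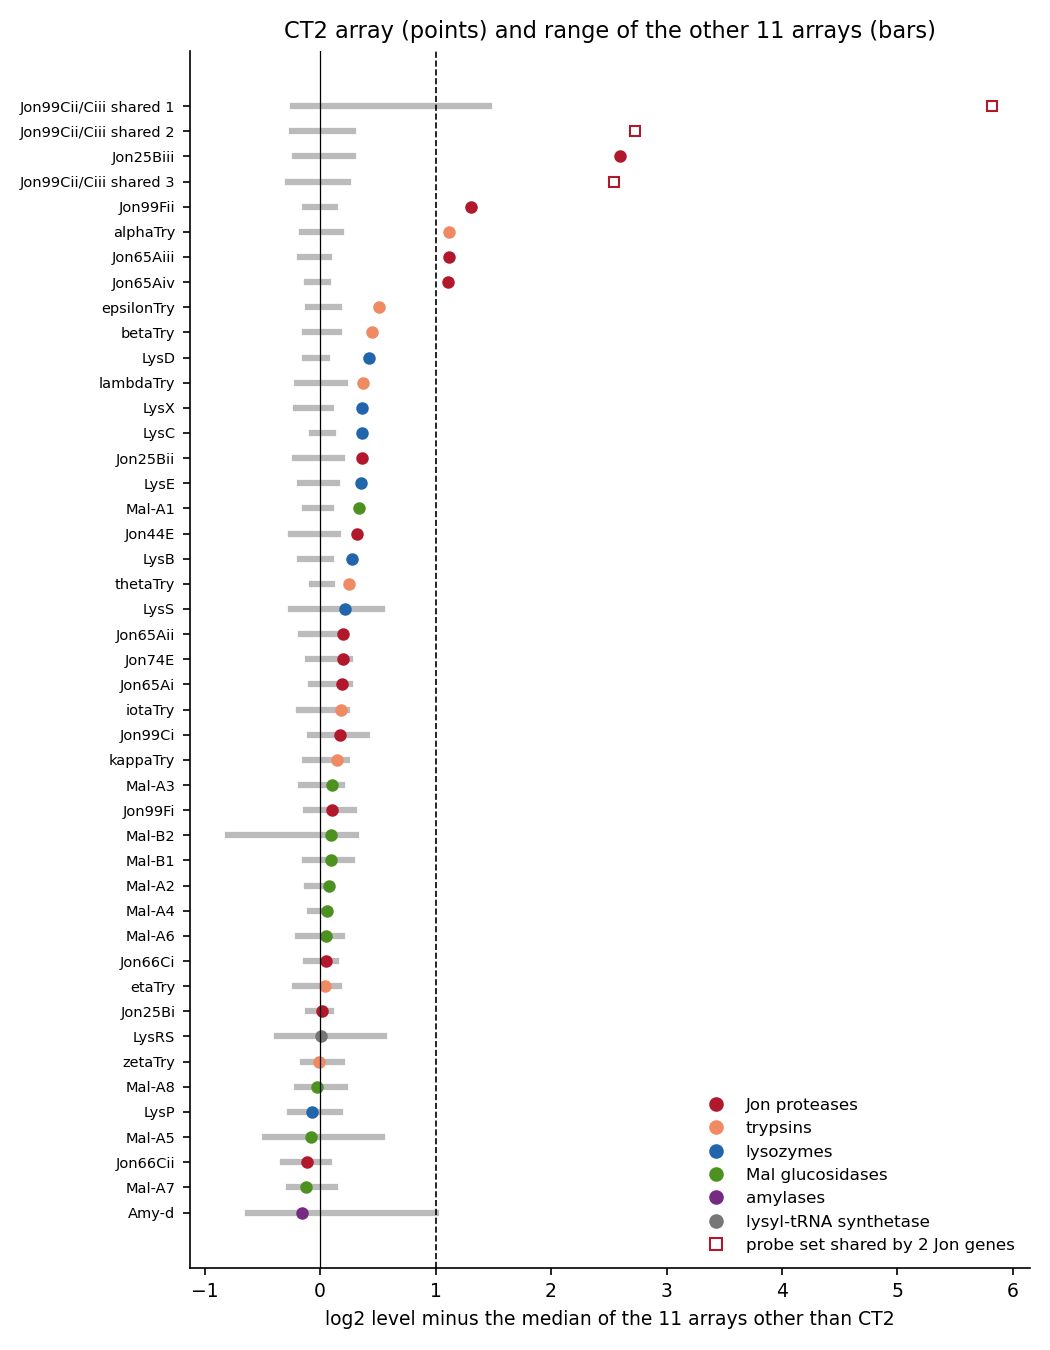
Log2 level on CT2 minus the median of the other 11 arrays for each gene (points, coloured by family) and for the 3 probe sets shared by Jon99Cii and Jon99Ciii (squares, numbered by size), with the range of the other 11 arrays as grey bars. The dashed line marks 1 log2, which 5 genes and the 3 shared sets passed, while Amy-d had the lowest point (−0.15) and the widest grey bar of the 42.

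Within the Jonah family the differences were uneven between neighbours on the chromosome. Gene order was taken from the current reference annotation (Release 6 plus ISO1 MT). Jon25Biii (2.60) is followed by Jon25Bii (0.36) and Jon25Bi (0.01). Jon25Bii was at 6.93 on CT2, at 6.61, 6.35, 6.76, 6.50, 6.59 and 6.52 from ZT2 to ZT22, and at 6.51, 6.57, 6.66, 6.70 and 6.53 from CT6 to CT22, so CT2 was its highest array by 0.17. Jon65Aiv and Jon65Aiii (both 1.11) are followed by Jon65Aii (0.20) and Jon65Ai (0.19). Jon99Ciii and Jon99Cii, which share the probe sets above, lie beside Jon99Ci (0.17), and Jon99Fii (1.31) lies beside Jon99Fi (0.10). Jon99Fi read only 2.62 to 3.03 on all arrays, near the lowest of the whole table (1.96). Whether it is above background is not known, so its small difference may not be that of the gene. Whether the probe set of a Jonah gene also reads other Jonah genes of similar sequence could not be checked. The remaining Jonah genes were Jon44E (0.32), Jon74E (0.20), Jon66Ci (0.05) and Jon66Cii (−0.11). Over all 14, CT2 was the highest array for 7, and the mean log2 level was 6.16 on CT2 against 5.51 to 5.73 on the other arrays.

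Among the 9 trypsins, alphaTry was followed by its neighbours epsilonTry and betaTry. epsilonTry was at 6.98 on CT2, at 6.38, 6.36, 6.63, 6.50, 6.48 and 6.51 from ZT2 to ZT22, and at 6.55, 6.39, 6.40, 6.47 and 6.44 from CT6 to CT22 (a difference of 0.51). betaTry was at 8.02 on CT2, at 7.48, 7.55, 7.73, 7.56, 7.62 and 7.57 from ZT2 to ZT22, and at 7.58, 7.56, 7.43, 7.72 and 7.57 from CT6 to CT22 (0.45). In both, CT2 lay above arrays of LD and DD that overlapped. lambdaTry was at 5.82 on CT2, at 5.46, 5.38, 5.67, 5.55, 5.43 and 5.63 from ZT2 to ZT22, and at 5.66, 5.25, 5.45, 5.43 and 5.45 from CT6 to CT22 (0.37). thetaTry was at 4.96 against 4.65 to 4.82 (0.25). With alphaTry, these 5 trypsins had CT2 as their highest array. iotaTry (0.18), kappaTry (0.15), etaTry (0.04) and zetaTry (−0.01) on CT2 stayed within the range of the other arrays.

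Of the 7 lysozymes, 5 had CT2 as their highest array, by differences from 0.28 to 0.43 log2, and none was over 1 log2 higher. LysD was at 8.12 on CT2, at 7.65, 7.70, 7.67, 7.69, 7.74 and 7.71 from ZT2 to ZT22, and at 7.56, 7.57, 7.69, 7.65 and 7.75 from CT6 to CT22 (0.43 log2, 1.34-fold). LysX was at 3.96 on CT2, at 3.61, 3.62, 3.59, 3.62, 3.58 and 3.60 from ZT2 to ZT22, and at 3.51, 3.69, 3.68, 3.46 and 3.39 from CT6 to CT22 (0.36). Its LD arrays lay inside the range of its later DD arrays. LysC, which the current annotation lists as a pseudogene, was at 7.68 on CT2, at 7.32, 7.33, 7.43, 7.43, 7.30 and 7.43 from ZT2 to ZT22, and at 7.32, 7.30, 7.27, 7.26 and 7.25 from CT6 to CT22 (0.36). LysB was at 9.60 on CT2, at 9.41, 9.36, 9.39, 9.42, 9.29 and 9.27 from ZT2 to ZT22, and at 9.26, 9.19, 9.35, 9.15 and 9.32 from CT6 to CT22 (0.28). In LysB and LysC the lowest arrays were of DD, although CT2 was the highest. LysE was at 8.68 against 8.15 to 8.47 (0.36). In these 5 lysozyme genes CT2 lay above every other array. LysP, the salivary lysozyme, was at 5.89, within its range of 5.70 to 6.13 on the other arrays (−0.07). LysS was at 9.48 on CT2, within its range of 9.01 to 9.80 (0.22). The probe sets of LysB, LysC, LysD, LysE and Jon99Fii, 5 of the 42, are of the type made for families of similar sequence, so their readings may not be separate. The family genes Amy-p, gammaTry and deltaTry had no probe set under their symbols. Whether the sets of Amy-d and of the trypsins also read them could not be checked.

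The sugar-cleaving enzymes showed little of this. Of the 10 Mal genes, Mal-A1 was at 6.46 on CT2 against 5.99 to 6.21 (0.34), and Mal-A4 was at 6.41 against 6.26 to 6.38 (0.06). The other 8 lay within the range of the other arrays, with differences from −0.12 (Mal-A7) to 0.11 (Mal-A3). Amy-d was 0.15 log2 below its median, and LysRS differed by 0.01. LysRS was at 7.25, 6.65, 6.86, 6.88, 6.77 and 6.63 from ZT2 to ZT22 and at 6.85, 6.84, 7.06, 7.40, 6.83 and 6.47 from CT2 to CT22, so CT2 lay in the middle of its values.

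**Figure D3:**
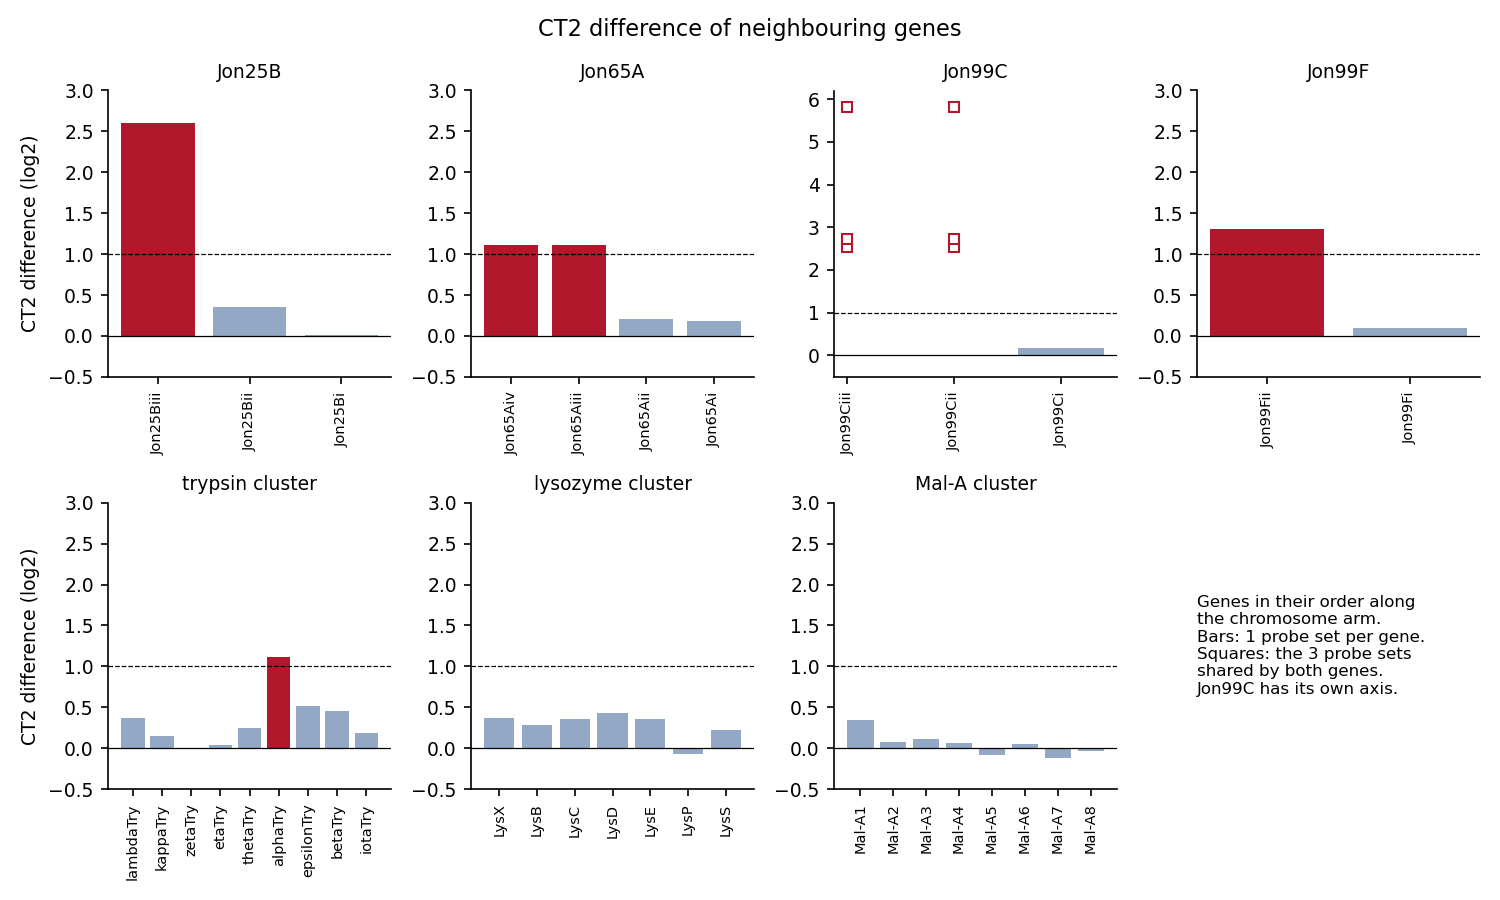
CT2 difference (log2, CT2 minus the median of the other 11 arrays) for neighbouring genes in their order along the chromosome arm, 1 panel per cluster. Bars are single genes, red where over 1 log2 (dashed line), squares are the 3 probe sets shared by Jon99Ciii and Jon99Cii, and genes without a probe set are left out. Jon25Biii stands at 2.60 beside Jon25Bii at 0.36 and Jon25Bi at 0.01.

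Other digestive enzymes outside the chosen families were listed with earlier results of these data known, and some were also higher on CT2. All 38 listed genes were measured, and Npc2d, Npc2e and Npc2h are counted among them although they encode no enzymes. Of these 3 were over 1 log2 higher (0.193% of all probe sets) and 0 were over 1 log2 lower (0.0573% of all). CT2 was the highest array for 13, where it was for 4.33% of all probe sets, and the median difference was 0.11. The serine protease genes CG10472 and CG17571 were at 8.30 and 7.17 on CT2, against 6.60 to 7.01 and 5.67 to 5.98 on the other arrays. yip7, a protease gene related to the Jonah genes, was at 8.20 against 6.84 to 7.23, and the carboxypeptidase gene CG12374 at 5.49 against 4.63 to 4.95. The carboxypeptidase genes CG3097 (−0.13) and CG4017 (−0.29) had the lowest differences of the list.

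Markers of the gut wall were set beside these, and no test compared the lists. Of 8 measured of 11 midgut epithelium genes, 0 were over 1 log2 higher, and the median was −0.03. Vha100-4 had 0.14, esg, the gene of gut stem cells, 0.01, pros −0.01 and mex1 −0.02, with nub at −0.09 and Dh31 at −0.11. Of these, mex1 read only 2.79 to 3.04 on the other arrays, near the bottom of the table, and pros, nub, NPF and Dh31 are also genes of neurons. How small a share of gut RNA would show in them was not tested. The mean level of this list was 5.40 on CT2, against 5.34 to 5.46 in LD and 5.38 to 5.53 on the other DD arrays. Of 7 measured of 11 genes of the gut lining and gut immunity, 0 were over 1 log2 higher and the median was 0.06. PGRP-SC2, Peritrophin-15b, Peritrophin-15a and Mur89F had 0.21, 0.10, 0.09 and 0.06, and Peritrophin-A and PGRP-LB had −0.10 and −0.24. For the 6 measured of 10 genes of proventriculus, crop and salivary gland the median was 0.02, with Sgs8 highest (0.18), then fkh (0.09), bab2 (0.05) and Eig71Ee (−0.01), and with dve (−0.03) and Sgs3 (−0.06) lowest.

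Markers of other tissues were set beside these. Those of the eye and brain are of the head, and the other lists do not separate tissue within the head from tissue outside it. The fat body gene Yp1 and the muscle gene Mlc2 were at 13.77 and 12.04 on CT2. On the other arrays they were at 13.43 to 13.94 and at 11.42 to 13.13. None of the genes measured passed 1 log2 on CT2 in either direction in flight muscle (9 of 11 measured, median −0.12), fat body (7 of 8, 0.01), Malpighian tubule (5 of 8, 0.09), ovary (10 of 12, 0.07), testis and accessory gland (10 of 11, −0.01) or eye and brain (9 of 15, −0.10). The mean level of the flight muscle list was 6.73 on CT2, against 6.58 to 7.56 in LD and 6.42 to 7.06 on the other DD arrays. That of the fat body list was 10.47, against 10.55 to 10.96 in LD and 10.38 to 10.51 on the other DD arrays. In the flight muscle list, fln and TpnC4 read only 2.99 to 3.48 and 2.31 to 2.60 on the other arrays, near the bottom of the table. Whether that list reads flight muscle or other muscle was not tested. The highest single differences were those of inaD in the eye (0.63) and of the ovary genes osk (0.46), Vm34Ca (0.45), Vm26Aa (0.40) and Cp15 (0.27). For osk, CT2 (4.63) lay within the range of the other arrays (3.55 to 5.83). inaD was at 8.70 on CT2 against 7.28 to 8.65, and Cp15 at 6.84 against 6.39 to 6.78. Vm34Ca was at 7.49 against 6.80 to 7.36, and Vm26Aa at 7.62 against 7.14 to 7.35. The lowest were those of the larval serum protein gene Lsp2 in the fat body (−0.53) and the neuronal gene elav (−0.38). Lsp2 was at 8.75 on CT2, within the 8.66 to 9.08 of the other DD arrays, and at 9.28 to 10.74 in LD. Its difference is thus not particular to CT2. For elav, CT2 (4.11) lay just below the other arrays (4.16 to 5.69). The part of these tissues in the CT2 levels was not tested, nor how small a share of their RNA would show.

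**Figure D4:**
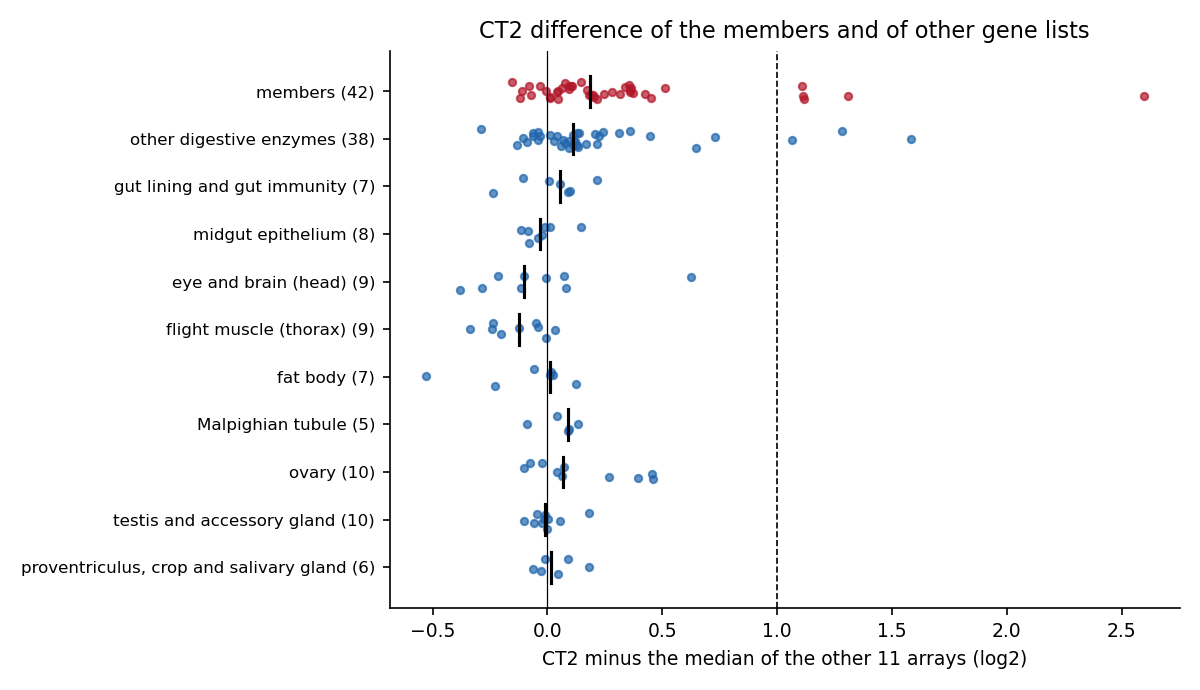
CT2 difference (log2) of each measured gene in the chosen families (red, 42 genes) and in 10 other lists (blue, number measured in brackets), with a black bar at the median and a dashed line at 1 log2. Points beyond the line occur among the 42 genes (5) and the other digestive enzymes (3), and in none of the other 9 lists.

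The mean level in DD was then compared with that in LD over all probe sets, with the cosine and sine of the hour in the fit. The light regime cannot be told apart here from the order of the days. No gene of the 42 passed (limma, Benjamini-Hochberg over 13966 probe sets, smallest adjusted p = 0.218), where 0.15% of all probe sets did. An unadjusted p under 0.05 was found for 4 of the 42 (9.52%), those of LysS, Mal-A5, kappaTry and Amy-d, and for 6.82% of all probe sets. With single arrays left out that count ran from 2 (without ZT22 or CT22) to 5. Without CT2 again 0 passed (limma, smallest adjusted p = 0.295), where 0.143% of all probe sets did, and 4 of the 42 had an unadjusted p under 0.05, where 8.48% of all had. The median DD minus LD difference of the 42 genes was 0.03 log2 and −0.01 without CT2, where that of all probe sets was −0.005 with it.

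LysS, a lysozyme gene, was the only 1 of the 42 whose arrays did not overlap between regimes (2.38%), where all DD arrays lay above all LD arrays for 0.122% of probe sets. No gene of the 42 had all DD arrays below all LD arrays, where 0.437% of probe sets had. Its log2 levels were 9.11, 9.11, 9.12, 9.26, 9.19 and 9.01 from ZT2 to ZT22, and 9.48, 9.46, 9.44, 9.27, 9.80 and 9.58 from CT2 to CT22. The lowest DD array, CT14, was 0.01 above the highest LD array, ZT14. The LD mean was 9.13 ± 0.09 (SD, n = 6) and the DD mean 9.51 ± 0.18 (SD, n = 6). The difference was 0.37 ± 0.08 log2 (SE; limma, adjusted p = 0.218). Without CT14 the difference was 0.44 and passed (limma, adjusted p = 0.0355).

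Amy-d, an amylase gene, went the other way and had the widest range of the 42. It was at 9.25, 8.76, 8.05, 8.24, 8.45 and 8.79 from ZT2 to ZT22, and at 8.09, 7.82, 7.92, 8.80, 7.62 and 7.82 from CT2 to CT22. The DD arrays CT6, CT10, CT18 and CT22 lay below every LD array and CT2 below every LD array but ZT10, whereas CT14 was as high as ZT22. The LD mean was 8.59 ± 0.43 (SD, n = 6) and the DD mean 8.01 ± 0.41 (SD, n = 6). The difference was −0.58 ± 0.23 log2 (SE; limma, adjusted p = 0.665). Without CT14 it was −0.81 and passed (limma, adjusted p = 0.0355). LysS and Amy-d were the 2 genes called without that array, where 0.172% of all probe sets were. What sets CT14 apart in them was not tested.

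Mal-A5, a glucosidase gene, was at 7.06, 6.83, 7.30, 7.39, 7.06 and 6.94 in LD and at 7.22, 7.31, 7.20, 7.39, 7.84 and 7.46 in DD. The groups overlapped, and the difference was 0.31 ± 0.10 log2 (SE; limma, adjusted p = 0.580). Mal-B2, another glucosidase gene, was at 6.86, 7.13, 7.10, 7.43, 7.44 and 7.18 in LD and at 7.22, 7.13, 7.26, 6.93, 6.46 and 6.33 in DD. It was lowest on CT18 and CT22, the arrays with the lowest 5′ minus 3′ signal, and Mal-A5 and LysS were highest on those 2. The difference of Mal-B2 was −0.30 ± 0.16 log2 (SE; limma, adjusted p = 0.782), and −0.07 in a fit that adjusts for the 5′ minus 3′ signal. In that fit the differences of Mal-A5 and LysS were 0.21 and 0.33.

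Other genes with the smallest p-values of their families were kappaTry (0.15 ± 0.06 log2, SE; limma, adjusted p = 0.631), etaTry (−0.07 ± 0.08, 0.878), Jon99Fi (0.11 ± 0.06, 0.782), Jon66Ci (0.08 ± 0.05, 0.815) and LysP (−0.06 ± 0.08, 0.907). LysRS differed by 0.07 ± 0.14 (limma, adjusted p = 0.940).

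**Figure D5:**
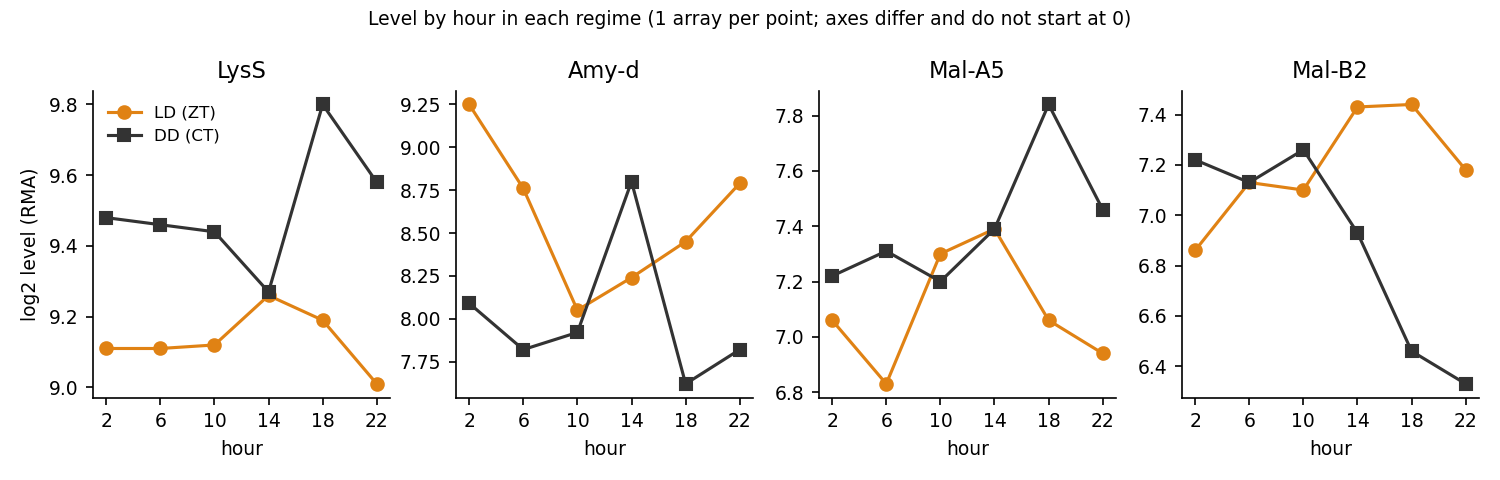
Log2 level (RMA) of LysS, Amy-d, Mal-A5 and Mal-B2 by hour in LD (orange circles) and DD (black squares), 1 array per point, with a separate axis for each gene that does not start at 0. The LysS arrays of DD (9.27 to 9.80) lie above those of LD (9.01 to 9.26), while the other 3 genes overlap between regimes.

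The series was made to follow daily rhythms, and none was called in the digestive genes. Over both days 0 of the 42 passed the test of a 24 h cosine and sine (limma, smallest adjusted p = 0.967), where 0.0215% of all probe sets did. None had an unadjusted p under 0.05, where 4.68% of all probe sets had. Without CT2 these counts were again 0 and 0, against 0.0143% and 5.19% of all probe sets (limma, smallest adjusted p = 0.943). The median amplitude, which is the height of the fitted peak above the mean, was 0.07 log2 in the 42 genes and 0.07 over all probe sets.

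The fits with the smallest p-values were those of the glucosidase genes Mal-A7 (0.11 ± 0.04 log2, SE, peak at hour 18.3) and Mal-A5 (0.18 ± 0.07, hour 16.1), each with an adjusted p of 0.967 (limma). Mal-A8 had 0.11 ± 0.05 at hour 0.104 and Jon99Ci 0.13 ± 0.06 at hour 2.07. For the proteases high on CT2 the fitted peak fell near that array, at hour 0.816 for Jon99Fii (0.23 ± 0.13), hour 1.82 for alphaTry (0.20 ± 0.12) and hour 1.95 for Jon65Aiv (0.18 ± 0.11). These amplitudes rest on CT2: without it they were 0.07, 0.02 and 0.0031, and the fitted peak of Jon99Fii was at hour 20.7. Amy-d had 0.15 ± 0.16 (limma, adjusted p = 0.976), which was 0.38 without CT14 and 0.03 without ZT2. For LysD, LysP, LysE, iotaTry, kappaTry and LysRS the amplitudes lay between 0.05 and 0.15 (limma, adjusted p from 0.967 to 0.971).

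With a curve for each day, 0 of the 42 genes passed in LD (limma, smallest adjusted p = 0.845), where 0.0501% of all probe sets did, and 1 had an unadjusted p under 0.05, against 5.66% of all. With single arrays left out that count ran from 0 (without ZT10, ZT14, ZT18 or ZT22) to 2 (without ZT6 or CT2). The gene was Amy-d, with an amplitude of 0.53 ± 0.17 log2 (SE) and a peak at hour 1.08. Its LD levels were highest on ZT2 (9.25), lowest on ZT10 (8.05) and back at 8.79 on ZT22, and its highest DD array was CT14 (8.80). Without CT2, 0 genes passed in LD, where 0.043% of all probe sets did, and 2 had an unadjusted p under 0.05, against 5.01% of all (limma, smallest adjusted p = 0.733). For the other fits with an array left out no such share is given.

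In DD 0 of the 42 passed (limma, smallest adjusted p = 0.234), as did 0% of all probe sets, and 2 had an unadjusted p under 0.05, against 11.5% of all. With single arrays left out this count ran from 1 (without CT10 or CT18) to 12 (without CT22). It was 7 without CT6, 4 without ZT2, ZT6 or CT2, and 7 in the fit adjusted for 5′ minus 3′ signal. A share of all probe sets is given for these fits only without CT2, so the counts of 7 and 12 cannot be read against one. Mal-B2 had an amplitude of 0.46 ± 0.09 log2 (SE) with a peak at hour 7.56, which was 0.10 in the fit adjusted for 5′ minus 3′ signal (limma, adjusted p = 1). Mal-B1 had 0.19 ± 0.06 with a peak at hour 19.4. Without CT2, 0 passed in DD, and the 4 with an unadjusted p under 0.05 stood against 10.9% of all probe sets (limma, smallest adjusted p = 0.138). The difference of the curves between the days passed for 0 of the 42 genes (limma, smallest adjusted p = 0.281) and for 0% of all probe sets. It had an unadjusted p under 0.05 for 2, against 9.96% of all, and for 1 (without ZT2, ZT10 or CT14) to 8 (without CT22) with single arrays left out. With all arrays these were Mal-B2 (0.64 ± 0.13 log2, SE; 0.25 in the fit adjusted for 5′ minus 3′ signal) and Amy-d (0.76 ± 0.25, and 0.41 without CT14). Without CT2, 0 passed and 2 had an unadjusted p under 0.05, against 8.07% of all (limma, smallest adjusted p = 0.354). For the other fits with an array left out no such share is given, so the count of 8 cannot be read against one.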

How the data were processed

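The deposited table holds log2 values, for which the authors used RMA, per the submitters' processing notes. The RMA version, and whether other arrays were normalized with these 12, are not given in the sources used here. Of 14010 probe sets, 44 controls were set aside and 13966 were tested, with no filter on low values. Of these, 12443 carried 1 gene symbol, 327 several and 1196 none. Of the 42 genes, 41 had their gene number in the current annotation. No genome build is named for the array, so no positions are given, and no sequences are shown.

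Fits used limma 3.58.1 in R 4.3.3 on all 12 arrays, with moderated statistics and Benjamini-Hochberg adjustment over all tested probe sets at a threshold of 0.05. They were also run on simulated data with independent noise and added cosine curves or mean shifts. That simulation held no single high array like CT2 and no spread of 5′ minus 3′ signal, so it does not cover those. Terms were regime with a 24 h cosine and sine, or a curve per regime. A gene in a list stands by its probe set with the highest mean. Genes, lists, tests and the CT2 array were chosen with earlier results of these data known. The naming rule took the 12 genes with the largest CT2 difference, the gene with the highest mean of each family, any called gene, up to 3 per family by rhythm p and 2 by mean-level p, 4 highest and 2 lowest of each list and the 10 other genes with the largest CT2 difference. The remaining genes of the families are named to account for each. Alternatives were the brighter 60% of probe sets, other normalizations, priors, covariates and blocks, each array left out and other references for CT2.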

Additional observations from a re-analysis of the deposited data

Results flagged for a closer look

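Each value below lay far from the other 5 of its regime, by a gap to the nearest array that was large against the whole range of the 6. In 72 groups examined 16 values were found, 14 of them high values of CT2. Chance flags about 1 in 20 such groups, but 12 of the genes were examined because their CT2 difference was largest, so the number of CT2 values cannot be read against that share. In these the nearest array follows the CT2 level. They were Jon25Biii (7.29, nearest 4.82), Jon99Fii (8.06, 6.88), alphaTry (6.28, 5.26), Jon65Aiii (8.03, 6.99), Jon65Aiv (8.49, 7.45), epsilonTry (6.98, 6.55), LysD (8.12, 7.75) and LysC (7.68, 7.32). The 3 probe sets shared by Jon99Cii and Jon99Ciii had 9.31 (6.59), 8.46 (4.11) and 9.60 (7.14). The mean log2 levels of the Jonah proteases (6.16, 5.68), the lysozymes (7.63, 7.38) and the trypsins (5.95, 5.67) stood out as well, and these means hold the single genes just named.

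In LD, Jon99Ci was high on ZT2 (5.23, nearest 4.94) and LysE on ZT14 (8.47, nearest 8.32).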

How the results depend on the processing

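The count of 5 genes over 1 log2 higher on CT2 was again 5 against the other DD arrays, ZT2 or the mean of ZT22 and CT6, after quantile normalization again and with centred arrays, 4 among the 30 genes with a mean of at least 5 log2 over the other 11 arrays, and 6 at 0.5 log2. The median difference of 0.18 was 0.23 against the other 5 DD arrays and 0.17 to 0.22 otherwise. Counts of called genes were 0 under every alternative run for the rhythm over both days, in LD, in DD and for its difference between days, single arrays left out included (0 to 0). For the mean level in DD against LD they were 0 except without CT14, where 2 were called, a range of 0 to 2 with single arrays left out. Adjusted for the 5′ minus 3′ signal, the smallest adjusted p of that comparison was 0.477 (limma). The DD minus LD value of LysRS (0.07) ran from −0.0275 without CT14 to 0.20 without ZT2. With hour of day as a replicate block 0 genes were called for the mean level (limma, smallest adjusted p = 0.451; 3 at an unadjusted p under 0.05), with 2 calls over all probe sets in place of 21, and 0 for the rhythm (smallest adjusted p = 0.999; 0 at an unadjusted p under 0.05). Arrays of the same hour in LD and DD correlated from −0.44 to 0.15 in their deviations from the regime means, and 0 of the 12 correlated best with the array of its own hour, so the hours were not taken as pairs. With 1 array per time point, a level on CT2 cannot be set against a repeat of that hour in DD.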

Other observations

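Of the 27 probe sets over 1 log2 higher on CT2, 19 were neither among the 42 genes nor shared by Jon99Cii and Jon99Ciii. These 19 include CG10472, CG17571 and yip7 of the list of other digestive enzymes. Whether more of the 19 are genes of digestive enzymes was not checked. Among named genes outside the families, the largest differences were those of CG16826 (2.10 log2), dhd (1.94), CG11911 (1.84), Cyp4g1 (1.79), Acbp5 (1.67), CG10472 (1.58), CG8997 (1.54), CG10911 (1.51), Ugt35B1 (1.48) and whe (1.36). CG11911 was at 6.87 on CT2 and between 4.83 and 5.19 on the other arrays, Acbp5 at 6.98 against 5.13 to 5.57, CG8997 at 4.76 against 3.03 to 3.43, and CG10911 at 8.17 against 6.44 to 6.88. These 4 genes, like Jon25Biii, stayed in a narrow range on every other array. CG16826, dhd and Cyp4g1 did not, since their levels reached 7.64, 8.54 and 7.56 on another array, above those of CT2 (6.79, 7.66 and 7.34). dhd encodes a thioredoxin of the female germ line and Cyp4g1 a cytochrome P450 of the oenocytes.

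The lowest levels of the digestive genes were unevenly spread over the arrays. ZT6 was the lowest of the 12 arrays for 12 of the 42 genes (28.6%), where it was for 13.9% of all probe sets. CT10 was for 8 (19.0%), where it was for 10.9%, and CT14 for 7 (16.7%), where it was for 8.79%. ZT6 was also the most frequent lowest array over all probe sets. The spread was not tested.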
